A study of Mus musculus with 18 samples.

Results

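The genes described here encode the machinery of DNA replication and of mitosis in the mouse ileum, the last stretch of the small intestine. The list held 46 genes, named by symbol. Each was represented by the probe set with a single annotated symbol that had the highest mean over all arrays, out of 18193 genes with such a probe set. Of the 46, 45 were measured, and 40 reached a log2 level of 6 on at least 3 arrays and were tested among 8630 genes. They were divided by role into 16 replication genes, 2 cyclins of the G1 and S phases and 28 mitotic genes. Ccnb1, the other B-type mitotic cyclin, was not analysed here. Cdc6, Gins1, Tyms, Chek1 and Ttk were measured but stayed below the filter, so they were tested only in an alternative without the filter.

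Full-thickness pieces of ileum, which hold epithelium, connective tissue, muscle, nerve and immune cells, were taken from individual C57BL/6 mice, an inbred laboratory strain, and RNA was hybridised to Affymetrix GeneChips. There were 6 groups of 3 mice, at postnatal days 4, 7, 9, 11, 24 and 32, and all groups shared the strain and carried no treatment or engineered allele in the labels. Days 4 to 11 (12 arrays) were taken as before weaning and days 24 and 32 (6 arrays) as after weaning, a division placed from general knowledge of laboratory mice. The labels give no sex, litter or batch, so litter, diet and age cannot be told apart.

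Proliferation in the intestinal epithelium is confined to the crypts and, before these form, to the regions between the villi. Cells first load the MCM helicase onto origins with the help of CDC6 and CDT1, then copy their DNA with GINS, PCNA and a supply of deoxynucleotides, and only later build up the cyclins, kinases, motors and ubiquitin ligase factors that carry mitosis. Transcription of the first set is known to depend largely on E2F factors, and that of the second on the DREAM and MuvB complexes, which bind an element called CHR (cell cycle genes homology region), often next to CCAAT boxes bound by NF-Y.

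The promoter stretches below are examples of this division in sequence. Not every gene follows it, and exceptions such as Mcm2 are given with the counts below. The first 5 are mitotic genes with large differences after weaning, 4 of which were also called lower during suckling. Mcm6 is a helicase subunit that was called lower after weaning, and Mcm5 is a helicase subunit that was not called. Sequences are from RefSeq on GRCm38.p6, printed 5′ to 3′ along the strand of the gene, and end at or up to 24 bases past the annotated transcription start. Capitals mark CHR, CCAAT boxes and E2F motifs, each on either strand, so that a CCAAT box on the other strand reads ATTGG. The CHR of these stretches is TTTGAA, which in Ube2c lies on the other strand. The stretches lie at chr9:70421545-70421654, minus strand (Ccnb2), chr5:30666766-30666909, plus strand (Cenpa), chr4:118437344-118437413, minus strand (Cdc20), chr2:164769829-164769928, plus strand (Ube2c), chr10:69352913-69353012, minus strand (Cdk1), chr1:128359706-128359825, minus strand (Mcm6) and chr8:75109349-75109508, plus strand (Mcm5).
Ccnb2: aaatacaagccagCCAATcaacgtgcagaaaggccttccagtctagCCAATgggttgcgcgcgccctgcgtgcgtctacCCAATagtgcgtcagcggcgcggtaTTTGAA
Cenpa: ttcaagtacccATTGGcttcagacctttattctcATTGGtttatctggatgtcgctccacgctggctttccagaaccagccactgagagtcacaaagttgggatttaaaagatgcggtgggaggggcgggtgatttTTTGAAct
Cdc20: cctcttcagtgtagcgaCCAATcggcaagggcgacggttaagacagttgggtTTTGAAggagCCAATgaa
Ube2c: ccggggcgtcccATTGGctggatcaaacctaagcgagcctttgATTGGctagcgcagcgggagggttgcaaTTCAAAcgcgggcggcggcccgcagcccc
Cdk1: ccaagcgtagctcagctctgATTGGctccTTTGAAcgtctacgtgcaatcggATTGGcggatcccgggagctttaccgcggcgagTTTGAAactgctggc
Mcm6: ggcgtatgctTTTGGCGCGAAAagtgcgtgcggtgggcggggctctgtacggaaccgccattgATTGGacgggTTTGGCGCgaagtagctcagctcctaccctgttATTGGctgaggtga
Mcm5: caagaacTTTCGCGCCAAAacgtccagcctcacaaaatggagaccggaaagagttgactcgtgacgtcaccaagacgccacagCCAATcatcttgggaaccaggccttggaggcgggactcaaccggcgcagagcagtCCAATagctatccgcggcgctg

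Each of the 5 mitotic stretches held a CHR and at least 2 CCAAT boxes, and the Cdk1 stretch held 2 CHRs. Neither MCM stretch held a CHR. The Mcm6 stretch held 3 E2F motifs and the Mcm5 stretch 2, in each case including a pair that overlap on opposite strands, and both held 2 CCAAT boxes.

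CHR was searched as TTTGAA and also in a second known form, TTCGAA, on both strands. The motifs were counted over the RefSeq window from 250 bases before to 50 after the start of each gene, which 38 of the 46 genes had. A CHR was present in 20 of 24 mitotic genes (83.3%) and in 2 of 13 replication genes (15.4%, Mcm2 and Mcm7), against 21.7% of all 27025 genes with a window. A CCAAT box was present in 87.5% of the mitotic, 61.5% of the replication and 41.1% of all genes. CHR and CCAAT occurred in the same window in 83.3% of the mitotic, 15.4% of the replication and 8.61% of all genes. The E2F motifs searched were TTTGGCGC, TTTCCCGC, TTTCGCGC, TTTGCCGC and GGCGGGAA, the last of which overlaps the reverse reading of the second. At least 1 of them was present in 8 of 13 replication genes (61.5%), in 1 of 24 mitotic genes (4.17%, Cdk1) and in 4.46% of all genes. Cdc6, Cdt1, Mcm3, Mcm5, Mcm6, Mcm7, Rrm1 and Chek1 were the replication genes with an E2F motif. Mcm2, the other helicase subunit called lower after weaning, held a CHR and none of these E2F motifs. Birc5, Mad2l1, Nusap1 and Ccnb1 were the mitotic genes without a CHR in this window, and the first 3 of these were nevertheless called higher after weaning. Kif22 and Mki67, the tested mitotic genes that were not called after against before weaning, held both CHR and CCAAT. A match describes letters in a window and is neither a binding site nor a cause, and no match says only that these letters are not in this window.

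Several measures of the arrays moved with weaning, and their part in the results was not tested beyond the fits named here. The mean log2 level of the 18S ribosomal control probe sets, at 4.93 to 8.19 before and 7.01 to 10.8 after weaning, averaged 10.5 on day 24 and 7.60 on day 32. That of the poly-A control probe sets was 3.53 to 4.51 before and 4.98 to 6.37 after weaning, and that of the hybridization spikes was 8.74 to 9.62 before and 9.65 to 9.99 after. Arrays with low Xist and high Eif2s3y, the pattern of males, numbered 3 of 12 before and 5 of 6 after. Day 11 replicate 1 and day 24 replicate 1 had the highest 18S ribosomal control levels of their ages, at 8.19 and 10.8. The median deviation from the age mean was -0.09 for mitotic and -0.20 for replication genes on the first of these, and -0.17 and -0.19 on the second. Calls that changed without either of them are named beside the results. All 9 pan-epithelial and all 7 mature enterocyte markers passed the filter. The fibroblast and matrix markers, summed on the linear scale, were at 11861 to 17965 before and 5424 to 8789 after weaning. All 8 were called lower, where 41.8% of all tested genes were called lower and 31.1% higher. The pan-epithelial markers summed to 19398 to 22394 before and 27738 to 34458 after, with 6 of 9 called higher and 3 lower. In bulk tissue, fewer cells of a type and less RNA per cell cannot be told apart.

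The mitotic and the replication genes followed different courses. As a group, mitotic genes were at intermediate levels on days 4 and 7, at their lowest on days 9 and 11, and clearly above all earlier ages on days 24 and 32. Replication genes also dipped on days 9 and 11 and on days 24 and 32 were back at about the level of days 4 and 7. Expressed as the median over genes of the log2 level relative to each gene's own mean, the mitotic genes averaged -0.03 on day 4, -0.04 on day 7, -0.38 on day 9, -0.38 on day 11, 0.37 on day 24 and 0.50 on day 32. The replication genes averaged 0.09, 0.10, -0.11, -0.19, 0.08 and 0.07 at the same ages. On each array the mitotic median minus the replication median lay between -0.32 and 0.01 before weaning and between 0.28 and 0.63 after it, so that the stages did not overlap.

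**Figure D1:**
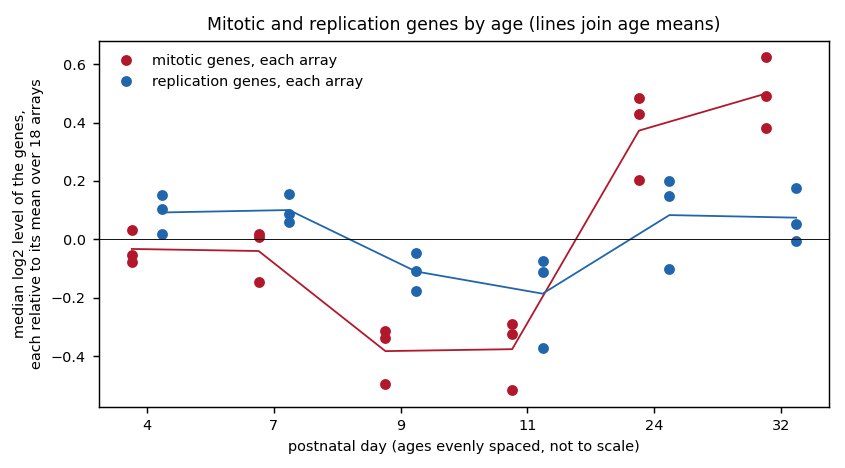
Each point is 1 array: the median over the 27 measured mitotic genes (red) or the 16 replication genes (blue) of the log2 level relative to each gene's mean over 18 arrays (vertical axis), by postnatal day (horizontal axis, evenly spaced), with lines joining the means of 3 arrays. Mitotic genes lie above replication genes on all 6 arrays after weaning and, on 11 of 12 arrays before weaning, below them.

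Across the 6 ages, an F test in limma called 31 of the 40 tested genes at an adjusted p below 0.05, where 68.3% of all tested genes were called. The 31 were 25 of 26 mitotic genes, 5 of 12 replication genes (Mcm2, Mcm5, Mcm6, Gins2 and Tk1) and Ccnd1. Kif22, a chromosome-arm motor, was the mitotic gene that did not pass, with an adjusted p of 0.0925. Among the replication genes, Pcna had the largest adjusted p of all, 0.964, so that no difference between ages was detected for the sliding clamp.

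**Figure D2:**
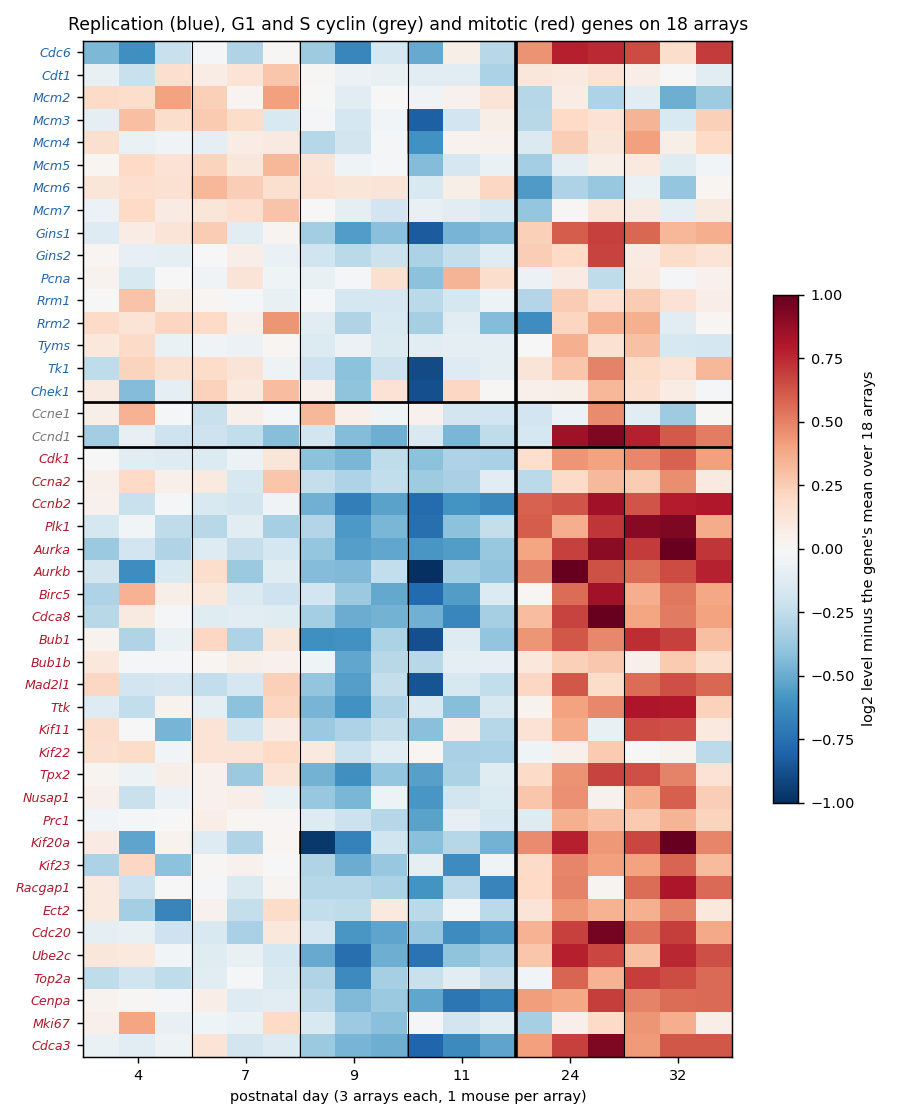
Log2 level of 45 genes (vertical axis) on 18 arrays, minus each gene's mean over the arrays, by postnatal day (horizontal axis, 3 arrays an age), with colours saturating at 1 log2 unit on either side. Names are blue for replication, grey for G1 and S cyclins and red for mitotic genes, and the thick vertical line marks weaning. The red names turn from blue cells on days 9 and 11 to red cells on days 24 and 32, whereas most blue names stay pale throughout.

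After weaning, 24 of 26 tested mitotic genes were called higher and 0 lower, by 1.20-fold to 2.14-fold, against a background of 31.1% of all tested genes called higher. Of the 12 tested replication genes, 2 were called higher and 2 lower, where 41.8% of all genes were called lower. In either direction, 29 of 40 genes were called, close to the 72.9% of all tested genes. The median log2 difference was 0.69 over the 27 measured mitotic genes, with all 27 above 0, and 0.12 over the 16 replication genes, against -0.07 over all genes tested. Because a gene could pass the filter through its level after weaning alone, the genes at log2 6 or above on all 18 arrays were also counted: 15 of 17 such mitotic genes were higher, and of 10 such replication genes 0 were higher and 2 lower. Levels of different probe sets cannot be compared between genes, so levels were compared between ages within 1 gene. Comparisons between genes or groups of genes concern differences between ages, or levels relative to each gene's own mean. All tests between ages are limma moderated tests with adjustment over 8630 genes, and errors of differences are standard errors of the fit.

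The mitotic kinase and its cyclins were called higher as a group. Cdk1, the kinase that drives entry into mitosis, lay between 7.09 and 7.67 (median 7.35) on the 12 arrays before weaning and between 7.71 and 8.14 (median 7.97) on the 6 arrays after it. The difference was 0.62 ± 0.06 (adjusted p = 8.20e-08), with no overlap. Ccnb2, a B-type cyclin that activates it, lay between 6.97 and 7.79 (median 7.39) before and between 8.33 and 8.58 (median 8.45) after. The lowest array after weaning was thus well above the highest before it, and the difference of 1.07 ± 0.07 (adjusted p = 5.30e-11) was a 2.10-fold rise. Ccna2, the cyclin that acts in both S phase and mitosis, overlapped between the stages, at 8.20 to 8.83 before and 8.29 to 9.02 after. Its difference was 0.27 ± 0.09 (adjusted p = 0.0132). The call was lost with a block for hybridization group (arrays split by the level of their hybridization spikes, adjusted p = 0.143), with Xist as a covariate (0.0738), and without day 24 replicate 3 (0.0538) or day 32 replicate 2 (0.0513).

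The 2 kinases of mitotic entry and spindle assembly had the largest median difference of the mitotic roles after weaning, 1.04, although Ccnb2 and Aurkb differed by more than Plk1. Aurka, the centrosomal Aurora kinase, lay between 6.06 and 6.52 before weaning (median 6.27) and between 7.05 and 7.63 after it (median 7.36). All 6 arrays after weaning exceeded all 12 before it, by 1.10 ± 0.08 on the log2 scale or 2.14-fold (adjusted p = 2.88e-10). Plk1, the polo-like kinase, lay between 5.91 and 6.63 before and between 7.02 and 7.60 after, a difference of 0.98 ± 0.10 (adjusted p = 4.28e-08) without overlap.

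The 3 measured subunits of the chromosomal passenger complex, which corrects faulty attachments of chromosomes to the spindle, were called higher together. Aurkb, its kinase, lay between 4.94 and 6.28 before and between 6.61 and 7.27 after weaning. Its groups did not overlap, although it reached the filter level on few arrays before weaning, and the difference was 1.07 ± 0.13 (adjusted p = 5.41e-07). Cdca8, which encodes borealin, lay between 7.06 and 7.81 before and between 8.02 and 8.74 after, a difference of 0.83 ± 0.09 (adjusted p = 1.48e-07). Birc5, which encodes survivin, differed by 0.67 ± 0.12 (adjusted p = 8.20e-05) but overlapped, at 7.00 to 8.12 before and 7.79 to 8.61 after.

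Genes of the spindle assembly checkpoint, which holds cells in mitosis until every chromosome is attached, were called higher to unequal extents. Bub1, a checkpoint kinase, lay between 5.11 and 6.20 before and between 6.30 and 6.73 after weaning, a difference of 0.82 ± 0.11 (adjusted p = 2.38e-06). Mad2l1, which encodes the MAD2 inhibitor of anaphase, differed by 0.69 ± 0.11 (adjusted p = 1.78e-05), and its groups overlapped slightly. Bub1b, which encodes BUBR1, differed by only 0.27 ± 0.07 (adjusted p = 0.00185) with the probe set used. Its other probe set above the filter gave 0.69, so its smaller difference depended on the probe set. Ttk, the checkpoint kinase MPS1, was below the filter at 4.76 to 5.59 before and 5.40 to 6.17 after, a difference of 0.69 that was called only without the filter (adjusted p = 2.00e-05).

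Spindle motors and microtubule proteins had the smallest median difference of the mitotic roles, 0.46. Tpx2, which activates Aurora A on the spindle, lay between 5.60 and 6.35 before weaning and between 6.36 and 6.89 after it. These ranges nearly touched, and the difference was 0.65 ± 0.10 (adjusted p = 8.85e-06). Nusap1, a microtubule bundling protein, differed by 0.50 ± 0.09 and Prc1, which bundles the central spindle, by 0.34 ± 0.08, both called with overlapping groups. Kif11, the motor that separates the spindle poles, differed by 0.46 ± 0.11, but the arrays that reached the filter level were 0 of 12 before weaning and 3 of 6 after it, so it was tested only through the stage where it was higher. Kif22 lay between 7.95 and 8.47 before and between 8.01 and 8.53 after weaning. It was not called (0.01 ± 0.08, adjusted p = 0.903), but it was called with its probe sets averaged (0.32, adjusted p = 9.57e-04).

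All 4 genes of cytokinesis were called higher. Kif20a, a motor of the cleavage furrow, lay between 4.67 and 5.72 before and between 6.07 and 6.64 after weaning, a difference of 0.96 ± 0.12 (adjusted p = 6.82e-07) without overlap. The arrays that reached the filter level were 0 of 12 before weaning and 6 of 6 after it, so it too was tested only through the higher stage. Racgap1, which with Kif23 forms the centralspindlin complex, differed by 0.67 ± 0.08 (adjusted p = 8.09e-07). Kif23 itself differed by 0.60 ± 0.10 (adjusted p = 3.19e-05). Ect2, the exchange factor that centralspindlin recruits, differed by 0.47 ± 0.11 (adjusted p = 6.66e-04), and its call was lost with the hybridization group as a block (adjusted p = 0.0551).

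Both genes of the anaphase-promoting ubiquitin ligase stood apart between the stages. Cdc20, the activator of the ligase, lay between 8.01 and 8.75 (median 8.38) before weaning and between 9.00 and 9.61 (median 9.26) after it. The difference was 0.90 ± 0.09 (adjusted p = 9.33e-08). Ube2c, its ubiquitin-conjugating enzyme, lay between 7.72 and 8.59 before and between 8.75 and 9.25 after, a difference of 0.85 ± 0.09 (adjusted p = 9.71e-08). Neither gene had an array after weaning within the range of the arrays before it.

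The remaining mitotic genes included both a large difference and the proliferation marker in widest use, which was not called. Cdca3, a factor that promotes mitotic entry, lay between 6.66 and 7.59 before and between 7.86 and 8.38 after weaning, a difference of 0.92 ± 0.08 (adjusted p = 4.86e-09). Cenpa, the histone variant of centromeres, lay between 6.42 and 7.21 before and between 7.53 and 7.83 after, a difference of 0.78 ± 0.06 (adjusted p = 2.87e-09). Top2a, the topoisomerase that untangles sister chromatids, differed by 0.70 ± 0.08 (adjusted p = 2.84e-07) with a single small overlap, its lowest array after weaning at 8.50 against the highest before at 8.51. Mki67, which encodes the Ki-67 antigen, lay between 8.76 and 9.57 (median 9.11) before and between 8.84 and 9.61 (median 9.30) after. Its difference of 0.19 ± 0.09 did not pass (adjusted p = 0.0650), and it passed under quantile normalization (0.0489), median centring (0.0451), cyclic loess (0.0158) and array weights (0.00438), and without day 24 replicate 1 (0.0115).

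**Figure D3:**
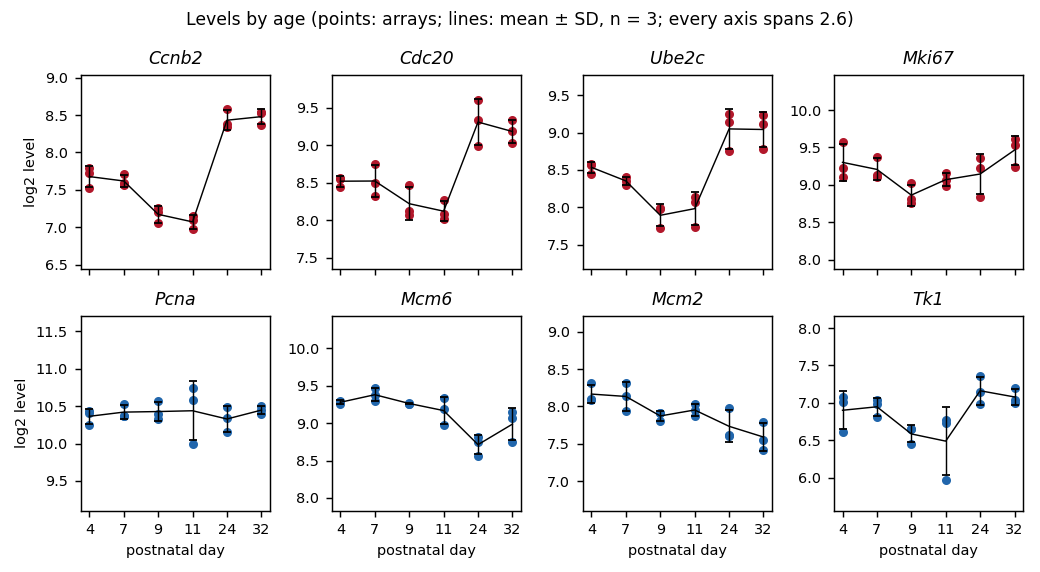
Log2 level (vertical axes, each spanning 2.6) by postnatal day (horizontal axes) of 4 mitotic genes (red) and 4 replication genes (blue). Points are arrays, and lines with bars are means ± SD of 3 arrays. Ccnb2, Cdc20 and Ube2c dip on days 9 and 11 and step up by day 24, Mki67 and Pcna show no such step, and Mcm6 and Mcm2 end lower than they began.

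Among the 7 origin-licensing genes tested, 2 were called, both lower, where 41.8% of all tested genes were called lower. Mcm6, a subunit of the replicative helicase, lay between 8.98 and 9.47 (median 9.28) before weaning and between 8.57 and 9.15 (median 8.79) after it. It fell by 0.42 on the log2 scale (SE 0.07, 1.34-fold, adjusted p = 3.77e-05). Mcm2, another subunit, lay between 7.80 and 8.32 before and between 7.42 and 7.98 after, and fell by 0.37 (SE 0.08, 1.29-fold, adjusted p = 4.40e-04). Both genes overlapped between the stages. The other 4 MCM subunits did not pass, at 0.12 ± 0.12 for Mcm3, 0.22 ± 0.10 for Mcm4, -0.11 ± 0.07 for Mcm5 and -0.04 ± 0.07 for Mcm7. With the block for hybridization group Mcm3 was called (0.39, adjusted p = 0.0219), as was Mcm4 (0.32, adjusted p = 0.0394). Without the block Mcm4 lay at the threshold (adjusted p = 0.0503) and passed under quantile normalization (0.0142), median centring (0.0472) and cyclic loess (0.00628), and without day 24 replicate 1 (0.0232). The 6 subunits, which form 1 ring, thus had 2 called falls and fitted differences of both signs among the others. Cdt1, which loads the ring, was not called (0.08 ± 0.07, adjusted p = 0.305), but its dimmer probe set gave 0.42 (adjusted p = 1.86e-04) and the mean of both 0.25 (adjusted p = 0.00136). Cdc6, the other loader, was below the filter, at 4.12 to 4.83 before and 4.94 to 5.54 after, a difference of 0.87 ± 0.11. Without the filter it was called higher (adjusted p = 8.79e-07), by more than either fall.

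Among genes of the replication fork, Pcna, the sliding clamp, lay between 9.99 and 10.75 before and between 10.15 and 10.50 after weaning. Its difference was -0.03 ± 0.09 (adjusted p = 0.819). Gins2, a subunit of the GINS complex of the active helicase, was called higher by 0.38 ± 0.07 (adjusted p = 8.31e-05), at 5.62 to 6.00 before and 6.02 to 6.62 after. These levels straddle the filter, and the gene reached it on 1 array before weaning. Gins1, another subunit, was below the filter, at 4.39 to 5.47 before and 5.45 to 5.89 after, and was called higher without the filter (adjusted p = 1.09e-06). Without the filter, 4 replication genes were thus called higher and 2 lower.

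Of the genes of nucleotide supply, 1 of 3 tested was called, where 72.9% of all tested genes were called in either direction. Tk1, thymidine kinase, was called higher by 0.39 ± 0.11 (adjusted p = 0.00379), at 5.97 to 7.08 before and 6.99 to 7.36 after weaning. That call was lost with Xist as a covariate (adjusted p = 0.0603). Rrm1 and Rrm2, the subunits of ribonucleotide reductase, were not called, at 0.15 ± 0.08 and 0.06 ± 0.12. Rrm1 was called higher under quantile normalization (adjusted p = 0.0350), cyclic loess (0.0146) and array weights (0.0196), with its probe sets averaged (0.43, adjusted p = 0.00256), and without day 24 replicate 1 (0.0052). Rrm2 was also called higher without that array (adjusted p = 0.0403). Tyms, thymidylate synthase, lay between 2.82 and 3.35 on every array, below the median level of the arrays. Chek1, the checkpoint kinase of stalled forks, lay below the filter, at 4.22 to 5.41 before and 5.09 to 5.43 after.

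The cyclins that start the cycle went separate ways. Ccnd1, the D-type cyclin induced by growth factors, lay between 7.96 and 8.36 before weaning and between 8.27 and 9.38 after it, a difference of 0.88 ± 0.13 (adjusted p = 5.65e-06). Its overlap came from day 24 replicate 1, at 8.27 where the other day 24 arrays were at 9.30 and 9.38. Ccne1, the cyclin of S-phase entry, was not called (-0.06 ± 0.10, adjusted p = 0.629). It lay close to the filter, which it reached on 2 arrays before and 1 after weaning. Its other probe set, below the filter, gave 0.20.

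**Figure D4:**
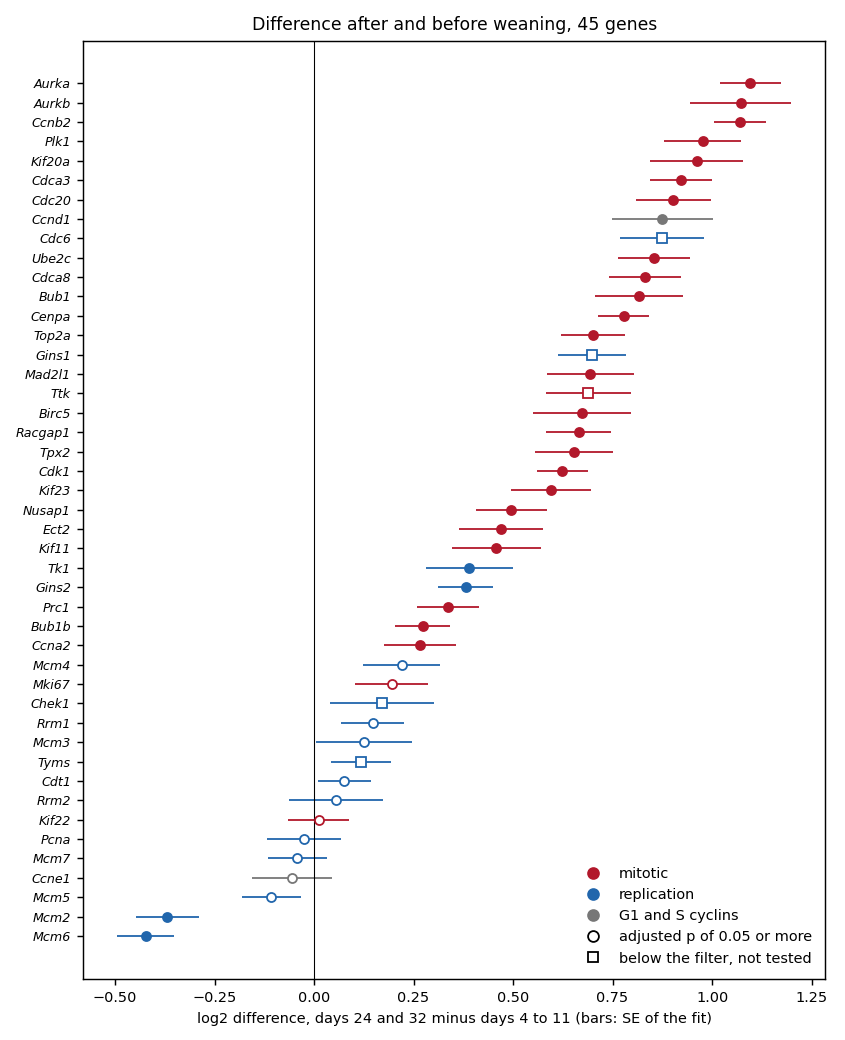
Log2 difference of days 24 and 32 minus days 4 to 11 (horizontal axis) for 45 genes (vertical axis), with bars of 1 SE from the fit. Filled circles have an adjusted p below 0.05, open circles do not, and squares are genes below the filter. The red mitotic genes fill the upper end, from Aurka at 1.10, and the blue helicase subunits Mcm2 and Mcm6 lie at the lower end.

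The difference between the 2 groups of genes was itself expressed as the median mitotic minus the median replication log2 difference, which was 0.57 after against before weaning. On single arrays, the mitotic minus the replication median of relative levels had an SD within ages of 0.10. That SD describes the spread of arrays and is not the error of the 0.57. Among the genes without overlap between the stages were 13 of the 26 tested mitotic genes and Gins2, where 15.5% of all tested genes were higher without overlap. These include Kif20a, which reached the filter level on 0 arrays before weaning, and Aurkb and Gins2, which reached it on 1 each. These genes passed the filter only through the stage where they were higher, which favours separation. Within the 10 arrays of the higher hybridization group, 4 before and 6 after weaning, the median difference was 0.62 for the mitotic genes, with 25 of 27 above 0, and 0.12 for the replication genes, with 11 of 16 above 0. Without day 24 replicate 1 and day 11 replicate 1 together, the excess of the mitotic over the replication median was 0.60.

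During suckling the genes that were called fell, and in the fit over all arrays all called genes above the filter were mitotic. Gins1, a replication gene below the filter, was called lower when the filter was left out. Between days 4 and 11, 4 of 40 genes were called, all mitotic and all lower, where 2.89% of all tested genes were called and 1.54% were called lower. They were Cenpa (fell by 0.64, SE 0.10, adjusted p = 0.00279), Ccnb2 (fell by 0.61, SE 0.11, adjusted p = 0.00462), Cdca3 (fell by 0.57, SE 0.13, adjusted p = 0.0209) and Ube2c (fell by 0.55, SE 0.15, adjusted p = 0.0496). Of the 45 measured genes, 41 had a negative difference, with a median of -0.31 over the mitotic and -0.19 over the replication genes, against -0.03 over all genes tested. The call of Ube2c was lost under 16 alternatives, among them the removal of day 11 replicate 1 (adjusted p = 0.194), no filter (0.0719) and Xist as a covariate (0.0600). That of Cdca3 was lost without day 11 replicate 1 (0.0921), day 11 replicate 2 (0.0578), day 4 replicate 2 (0.0664) or day 4 replicate 3 (0.0798), and with the arrays of those ages alone (0.0848). Some replication genes were called lower under alternatives, Cdt1 and Rrm2 with array weights (0.0410 and 0.0233) and Tk1 with the block for hybridization group (0.0474). Gins1 had a difference of -0.60 ± 0.14 without overlap, and was called lower without the filter (adjusted p = 0.0391). Among tested genes, 19 of 40 were lower on all 3 arrays of day 11 than on all 3 of day 4, of which 13 were mitotic and 6 replication genes, where 12.4% of all tested genes were lower without overlap and 1.34% were called higher.

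The individual arrays show when the drop came. Cenpa was at 7.17, 7.15 and 7.13 on day 4 and at 7.21, 7.02 and 7.03 on day 7. It was at 6.88, 6.70 and 6.77 on day 9 and at 6.62, 6.42 and 6.49 on day 11. Its mean thus fell in similar steps from day 7 to day 9 and from day 9 to day 11, and on day 24 Cenpa was at 7.56, 7.53 and 7.83, above every earlier array. Ccnb2 was at 7.79, 7.52 and 7.72 on day 4 and at 7.59, 7.56 and 7.71 on day 7. It was at 7.26, 7.05 and 7.21 on day 9, at 6.97, 7.15 and 7.10 on day 11 and at 8.33, 8.37 and 8.58 on day 24. Its groups at days 4 and 7 overlapped, as did those at days 9 and 11, with a gap between the pairs of ages.

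When days 9 and 11 were compared with days 4 and 7, a contrast of 6 arrays against 6, 5 of 40 genes were called, all lower and all mitotic, where 1.51% of all tested genes were called and 0.742% were called lower. Ccnb2 fell by 0.53 (SE 0.08, adjusted p = 0.00119), Ube2c by 0.51 (SE 0.10, adjusted p = 0.0158), Cdca3 by 0.48 (SE 0.09, adjusted p = 0.00919), Cenpa by 0.47 (SE 0.07, adjusted p = 0.00224) and Cdk1 by 0.31 (SE 0.07, adjusted p = 0.0459). The call of Cdk1 was close to the threshold and was lost under 19 of the alternatives tried, among them the removal of day 11 replicate 1 (adjusted p = 0.0918), median centring (0.0504) and the hybridization group as a block (0.0829). Of all 45 measured genes, Pcna alone had a positive difference. The median was -0.31 over the mitotic and -0.19 over the replication genes, against -0.01 over all genes tested, and at an unadjusted p below 0.05 there were 30 of 40 genes, all lower, where 14.3% of all tested genes were below it in either direction. Among the tested replication genes, Rrm2 had a difference of -0.44 ± 0.14 (adjusted p = 0.129) and Tk1 of -0.39 ± 0.13 (adjusted p = 0.154), so none passed. Gins1, a replication gene below the filter, had a difference of -0.55 ± 0.10 without overlap. This was the lowest of all 45 measured genes, and it was called without the filter (adjusted p = 0.00999). Rrm2 was called with those ages alone (adjusted p = 0.0144) and without day 24 replicate 1 (0.0181), as were Ccna2 (0.0479) and Cdca8 (0.0324) without that array. Tk1 was called with the block for hybridization group (0.0260), and under array weights Rrm2, Tk1, Cdt1, Gins2, Mcm2, Mcm3, Mcm5 and Mcm7 were called lower. Of the 40 tested genes, 12 (10 mitotic, with Gins2 and Rrm2) were lower on all 6 later arrays than on all 6 earlier ones, where 1.38% of all tested genes were lower without overlap and 0.765% were called higher. The excess of the mitotic over the replication median was -0.11. The SD within ages of 0.10 is that of single arrays and not the error of this contrast. Whether the dip was larger in either group of genes was not tested.

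The crypt stem cell markers did not dip with them. Their summed level was 1547 on day 4, 1652 on day 7, 1991 on day 9 and 2164 on day 11. Lgr5, the receptor that marks crypt base stem cells, rose by 1.19 ± 0.22 from day 4 to day 11 (adjusted p = 0.00638), and Olfm4, another marker of these cells, had a difference of 0.61 ± 0.17 (adjusted p = 0.0584). The fibroblast and matrix sum had means of 12135 on day 4 and 16913 on day 11. The part of either in the dip was not tested.

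From day 11 to day 24, across weaning, 28 of 40 genes were called, 27 higher and 1 lower, where 59.2% of all tested genes were called, 26.9% higher and 32.3% lower. Mitotic genes made up 23 of the 27 (of 26 tested), with a median difference of 0.76 over the 27 measured. Replication genes called higher were Gins2 (0.60 ± 0.11), Tk1 (0.67 ± 0.18) and Cdt1 (0.30 ± 0.11), and Mcm6 was called lower. Below the filter, Gins1 averaged 4.64 on day 11 and 5.72 on day 24, and Cdc6 4.53 and 5.43. With the filter left out, 5 replication genes were called higher and 1 lower. Mcm2 was called lower with its probe sets averaged (-0.40, adjusted p = 0.0133) and without day 24 replicate 2 (0.0387). The call of Cdt1 was lost with the arrays of those ages alone (adjusted p = 0.0858), with Xist as a covariate (0.0943) and without day 11 replicate 3 (0.108) or day 24 replicate 3 (0.0572). The median over the 16 replication genes was 0.27. Since day 11 lies at the bottom of the dip, this step was larger than the difference between the stages for genes such as Ccnb2 (1.36 ± 0.11, adjusted p = 5.63e-09), Cdca3 (1.32 ± 0.13, adjusted p = 7.57e-08) and Aurkb (1.40 ± 0.21, adjusted p = 1.68e-05). Day 11 arrays enter both this and the day 4 comparison. Kif22 passed here by a narrow margin (0.30 ± 0.13, adjusted p = 0.0493), a call lost with the hybridization group as a block (0.298). Mki67 had a difference of 0.08 ± 0.15 (adjusted p = 0.687), and Ccna2 of 0.35 ± 0.15 (adjusted p = 0.0508). Without day 24 replicate 1, Ccna2 (adjusted p = 0.00377), Rrm1 (0.00928) and Rrm2 (0.00260) were called higher. Without day 11 replicate 1, the calls of Prc1 (0.0526), Bub1b (0.0547) and Ect2 (0.0641) were lost and Pcna was called lower (fell by 0.33, adjusted p = 0.0271). Ect2 was also lost with the block for hybridization group (0.141), and Mcm3 was called higher with it (0.61, adjusted p = 0.0132).

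Mcm6 was the tested member called lower in this step. It was at 8.98, 9.19 and 9.34 on day 11 and at 8.57, 8.82 and 8.75 on day 24, without overlap. It fell by 0.46 (SE 0.12, adjusted p = 0.00280), but a second, dimmer probe set gave -0.02 for this step (adjusted p = 0.919). On day 32 the used probe set was at 9.07, 8.75 and 9.15, with 2 of 3 arrays above day 24.

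Between days 24 and 32, 0 of 40 genes were called, where 12.3% of all tested genes were called by limma, 6.11% higher and 6.22% lower. At an unadjusted p below 0.05 there were 5, 4 higher and 1 lower, where 27.8% of all tested genes were below it. Racgap1 came closest, at 6.73, 7.03 and 6.56 on day 24 and 7.09, 7.34 and 7.10 on day 32. The difference of 0.40 ± 0.13 had an adjusted p of 0.0562, and it passed without day 24 replicate 2 (0.0186). A difference of this size may have escaped the test: in simulated data, 4 of 50 genes changed by 0.3 and 32 of 50 changed by 0.6 were recovered in this comparison.

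Some differences depended on which probe set stood for the gene. Of the 18 genes with several probe sets above the filter, 14 had all of them in 1 direction after against before weaning, and Mcm4, Mcm5, Mcm7 and Rrm2, all replication genes, did not. Ccnd1 was the widest case, with log2 differences of 0.88 for the probe set used and 1.43 and 0.20 for the others. Rrm2 had log2 differences of 0.06 for the probe set used and 0.55 and -0.50 for the others. Both probe sets of Mcm6 were lower (-0.42 and -0.54), as were both of Mcm2 (-0.37 and -0.48), so the fall of these subunits after weaning did not hang on the choice. Ccna2 had a difference of 0.27 for the probe set used and 0.94 for the other, Kif22 of 0.01 and 0.64, and Bub1b of 0.27 and 0.69. For these mitotic genes the brighter probe set gave the smaller difference. Which transcripts the probe sets read was not tested.

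**Figure D5:**
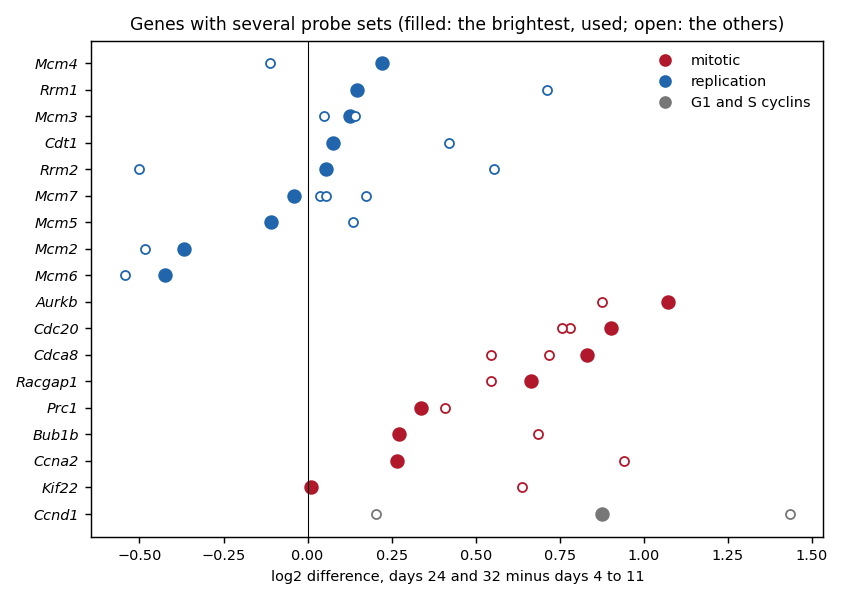
Log2 difference of days 24 and 32 minus days 4 to 11 (horizontal axis) for each probe set above the filter of the 18 genes with more than 1 (vertical axis). Filled circles are the probe sets used and open circles the others. Mitotic genes (red) lie to the right of 0 with every probe set, while the blue probe sets of Rrm2 spread from -0.50 to 0.55.

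Within an age, pairs of genes within and between the 2 groups varied together only weakly across mice. The median Pearson correlation of deviations from the age means was 0.33 over 325 pairs of mitotic genes, 0.38 over 66 pairs of replication genes and 0.24 over 312 mixed pairs. Over all ages, with the age means left in, the medians were 0.81, 0.36 and 0.37. These are descriptions over 18 arrays whose genes share array, depth of hybridization and tissue piece.

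Of 34 tested other mitosis genes (47 measured), 23 were called higher and 3 lower after weaning. Of all tested genes, 31.1% were called higher and 41.8% lower. Melk, a kinase of proliferating cells, was higher by 1.15 ± 0.10 (adjusted p = 1.34e-08), and Nek2, a centrosomal kinase, by 0.84 (adjusted p = 4.39e-09). Zwint, a kinetochore protein, fell by 0.73 (adjusted p = 1.06e-06), and Stmn1, which destabilises microtubules and is also abundant in neurons, fell by 0.59 (adjusted p = 2.01e-07). Of 25 other replication genes tested (33 measured), 8 were called higher, close to the share of all tested genes, and 3 lower. The median was 0.07 over those measured. Regulators of origin firing and licensing were among those higher, Dbf4 (0.80, adjusted p = 4.63e-06) and Gmnn, which encodes geminin (0.71, adjusted p = 2.63e-08). Rpa1, which coats single-stranded DNA, fell by 0.49 (adjusted p = 2.26e-04).

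Among the inhibitors of cyclin-dependent kinases, 3 showed differences larger than that of any member. Of 6 tested, 3 were called higher and 3 lower after weaning, where 31.1% of all tested genes were called higher and 41.8% lower. Cdkn1c, which encodes p57 and is imprinted, fell by 4.12 (SE 0.12, adjusted p = 1.64e-15). Cdkn1a, which encodes p21, rose by 1.65 ± 0.08 (adjusted p = 2.31e-12), and Cdkn2b, which encodes p15, by 1.79 (adjusted p = 3.73e-15). Cdkn1b, which encodes p27, fell by 0.38 (SE 0.10, adjusted p = 0.00243). Among E2F and pocket protein genes, 7 of 11 tested were called higher and 2 lower, with E2f2, an activator E2F, at 1.35 (adjusted p = 7.56e-10) and Rb1, the retinoblastoma repressor of E2F, at 1.05 (adjusted p = 3.38e-09). E2f8, an atypical repressor, fell by 0.59 (adjusted p = 1.07e-05). Of 7 other G1 cyclins and kinases, 2 were called higher and 4 lower. Ccnd3, a D-type cyclin, fell by 1.44 (adjusted p = 5.97e-11) and its partner Cdk4 by 0.77 (adjusted p = 6.35e-08), opposite to Ccnd1.

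Marker lists of other dividing cells had these levels. The summed level of B cell and germinal centre markers was 95.4 to 123 before and 321 to 4377 after, and that of T cell markers 214 to 253 before and 267 to 738 after. All 7 measured B cell markers and all 8 T cell markers had positive differences, but only 3 of each list passed the filter. The B cell differences had a median of 1.47 and a highest of 7.05, so their sum is weighted towards the largest. The B cell sum averaged 466 on day 24 and 3052 on day 32. Erythroid precursor markers summed to 78.8 to 119 before and 55.2 to 76.7 after, with 3 of 6 measured markers positive and 1 of the 6 above the filter. Crypt stem cell markers summed to 1422 to 2289 before and 2024 to 2922 after, with 5 of 9 positive. Of 6 tested, 2 were called higher and 1 lower, where 31.1% of all tested genes were called higher and 41.8% lower. The part of each cell type in the mitotic levels was not tested.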

How the data were processed

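RNA of 18 ileum samples, 3 mice at each of 6 ages, was measured on Affymetrix arrays. The authors deposited 1 table of log2 levels by probe set, produced with RMA per the submitters' processing notes (version not given). The table holds 45101 probe sets (64 controls), and array medians ran from 3.88 to 3.97. It gives no detection calls, so the number of arrays limits the precision. Scan dates were not used here.

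Probe sets were named from the platform annotation (35890 listed, 34945 with 1 symbol, and 932 with several, not used here). Each gene took its brightest probe set by mean among those at log2 6 or above on at least 3 arrays. A linear model per gene (limma 3.58.1, R 4.3.3, empirical Bayes) had age as its only factor over all 18 arrays, with 12 residual degrees of freedom and a median residual SD of 0.176. P-values were adjusted by Benjamini-Hochberg across 8630 genes, and genes below 0.05 were called. The comparisons were days 24 and 32 minus days 4 to 11, day 11 minus day 4, days 9 and 11 minus days 4 and 7, day 24 against day 11, day 32 against day 24 and an F test over the 6 ages. The labels do not say whether the mice of an age shared a litter, so p-values measure the spread between these mice.

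The members and lists were chosen with earlier results of these data known. Every member could be named, as could up to 4 called genes of each other list with the largest difference, together with Cdkn1a, Cdkn1b, Cdkn1c, Lgr5 and Olfm4. Promoter windows of RefSeq (GRCm38.p6) were searched for motifs on both strands. Alternatives were averaging the probe sets of each gene, leaving out the filter or raising it to log2 8, normalizing again (quantile, median centring, cyclic loess), eBayes with trend and robust options, array weights, the arrays of the compared ages alone, the hybridization group as a block, Xist as a covariate, 4 genes left out (Ccna2, Mki67, Top2a and Chek1) and each array left out. Added later were the dimmest passing probe set and the joint removal of 2 arrays. On simulated data with 200 of 8630 genes changed, the model was checked once per comparison. Between the stages 24 of 50 genes changed by 0.3 and 46 of 50 changed by 0.6 were recovered. In the data 72.9% of tested genes were called between the stages, a larger share than was simulated, so recovery there may differ.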

Additional observations from a re-analysis of the deposited data

How the results depend on the processing

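No direction of a called member reversed under any alternative tried. After against before weaning, the number called ranged from 28 to 33 with 1 array left out, and the excess of the mitotic over the replication median from 0.50 to 0.62. A filter at log2 8, which tests fewer genes, gave 13 called and an excess of 0.73, and 13 called with an excess of 0.90 from day 11 to day 24. For that step the excess was 0.62 with the dimmest passing probe set, 0.60 with probe sets averaged and 0.59 without Ccna2, Mki67, Top2a and Chek1. With 1 array left out, its count ranged from 25 to 31 and its excess from 0.46 to 0.58. From day 4 to day 11 the count was 8 with array weights, whose fit gave a convergence warning, 7 with the mean of probe sets and 0 with the arrays of those ages alone, where fewer arrays estimate the spread. The excess with array weights was -0.016. With 1 array left out the count ranged from 2 to 5 and the excess from -0.14 to -0.06, with 2 called without day 11 replicate 1, day 4 replicate 2 or day 4 replicate 3. For days 9 and 11 against days 4 and 7 the count was 28 with array weights, 3 with the filter at log2 8, 8 with the mean of probe sets and 9 with those ages alone. It ranged from 3 (without day 9 replicate 2) to 8 (without day 24 replicate 1). From day 24 to day 32 the count was 1 with the dimmest probe set and 1 with the mean of probe sets, and 0 to 2 with 1 array left out. The excess there was -0.12 with the filter at log2 8 and -0.046 without the 4 genes, and -0.04 to 0.15 with 1 array left out. Across the 6 ages the filter at log2 8 gave 14 called, and leaving out 1 array gave 29 to 33. Except where stated, the cause of these shifts was not tested. No paired analysis was possible because the ages compared share fewer than 2 sample numbers in the labels: a single number occurs at both day 7 and day 9.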
